A study of Mus musculus with 9 samples.

Results

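De novo lipogenesis is the making of fatty acids from carbohydrate, and 10 mouse genes of this pathway were followed in liver RNA: Srebf1, Mlxipl, Acly, Me1, Acaca, Acacb, Fasn, Elovl6, Scd1 and Thrsp. The genes were taken by name, as the SREBP-1 and ChREBP genes and the enzymes these factors drive. All 10 were found by symbol among 23440 genes with a unique symbol, and all 10 were among the 10161 genes that passed the filter on low values. RNA sequencing covered livers of C57Bl6 mice in 9 libraries. In the treated group, mice of 20 to 22 months ate chow with PD-0332991, at an amount the labels write as 450 mg/k, for 2 weeks (3 libraries). The other groups received no drug and were 20 to 22 months old (3 libraries) or 2 months old (3 libraries), and are called aged untreated and young livers below. PD-0332991, or palbociclib, blocks CDK4 and CDK6, kinases of the cell cycle, and the series title ties Cdk4 to fat accumulation in the ageing liver. No treated young group is among the samples, so the drug is compared only between aged mice, and treated aged livers differ from young ones in both age and drug. Whether each library comes from its own mouse is not said in the labels, so the p-values measure spread among libraries, which may be technical. The files hold TPM, a relative transcript abundance corrected for transcript length, so sequencing depth is unknown.

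In this pathway ATP-citrate lyase (Acly) makes cytosolic acetyl-CoA, malic enzyme (Me1) yields NADPH, and acetyl-CoA carboxylase turns acetyl-CoA into malonyl-CoA. Fatty acid synthase (Fasn) joins these units into palmitate, which Elovl6 lengthens and Scd1 desaturates before storage as triglyceride. Hepatocytes run the pathway after feeding: insulin raises SREBP-1c, the main liver product of Srebf1, which is held in the endoplasmic reticulum by INSIG proteins and carried out by SCAP for cleavage, and glucose activates ChREBP, the product of Mlxipl. Because SREBP-1 acts only after cleavage, its mRNA is not a measure of its activity.

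Promoters of the members that stood furthest apart are shown first, with that of Fasn, the classical SREBP target. The windows run from 250 bases before to 50 bases after a RefSeq transcript start on GRCm38.p6, and 9 of the 10 members had one (13 windows in all, since some genes have several starts). The sequences are written 5′ to 3′ on the gene's strand, with capitals for matches on either strand to 4 motifs: the sterol element core TCACCC, the CCAAT box, the GC box GGGCGG and the E-box CACGTG. The motifs were chosen with the sequences in view. The Srebf1 gene spans chr11:60199084-60224186 and Elovl6 spans chr3:129532386-129638495. The Srebf1 window is the most downstream of 3 starts (chr11:60210422-60210721, minus strand), that of Fasn is chr11:120824498-120824797, minus strand, and that of Elovl6 is chr3:129532136-129532435, plus strand.
Srebf1: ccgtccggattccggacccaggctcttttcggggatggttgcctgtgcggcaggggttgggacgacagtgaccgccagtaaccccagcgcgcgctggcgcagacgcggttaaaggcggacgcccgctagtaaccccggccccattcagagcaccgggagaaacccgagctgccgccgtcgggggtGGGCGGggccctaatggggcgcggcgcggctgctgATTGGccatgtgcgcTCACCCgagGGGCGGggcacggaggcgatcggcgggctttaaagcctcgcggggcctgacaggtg
Fasn: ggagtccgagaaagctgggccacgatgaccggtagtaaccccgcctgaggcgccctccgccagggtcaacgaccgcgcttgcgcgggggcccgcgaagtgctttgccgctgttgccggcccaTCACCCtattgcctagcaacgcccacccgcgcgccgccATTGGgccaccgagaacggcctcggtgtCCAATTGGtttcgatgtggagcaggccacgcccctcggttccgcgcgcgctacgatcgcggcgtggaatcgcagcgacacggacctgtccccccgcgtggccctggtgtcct
Elovl6: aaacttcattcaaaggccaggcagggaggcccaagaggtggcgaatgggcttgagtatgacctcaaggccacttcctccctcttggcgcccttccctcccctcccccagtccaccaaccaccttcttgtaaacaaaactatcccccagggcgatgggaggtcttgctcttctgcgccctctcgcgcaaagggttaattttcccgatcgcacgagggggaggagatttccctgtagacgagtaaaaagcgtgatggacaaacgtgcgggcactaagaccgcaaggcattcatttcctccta
The Srebf1 window shown held TCACCC between a CCAAT box and a GC box, while the windows at the other Srebf1 starts held no TCACCC. In Fasn TCACCC stood upstream of 3 matches to CCAAT, of which 2 overlapped. The Elovl6 window held none of the 4 motifs. TCACCC occurred in 3 of the 13 member windows (the most downstream start of Srebf1, Fasn and the first start of Me1) and in 16.2% of all 32851 windows of this length. CACGTG occurred in 1 of 13 (the first start of Mlxipl) and in 7.15% of all windows, CCAAT in 8 of 13 and 37.4%, and GGGCGG in 5 of 13 and 35.7%. A match describes letters and does not show binding.

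Treated, aged untreated and young livers kept the same leading order of levels in TPM. Scd1 was highest in each group, followed by Thrsp and then Mlxipl, with ranges of single libraries that did not overlap. Me1, Fasn and Acly followed, Elovl6 ranked below them, and Acaca and Acacb took the last 2 places. Srebf1 took a different place in each group: it ranked the eighth in treated livers, the fifth in aged untreated livers and the sixth in young livers. Within each group most neighbours below Mlxipl overlapped, so their order is not resolved.

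**Figure D1:**
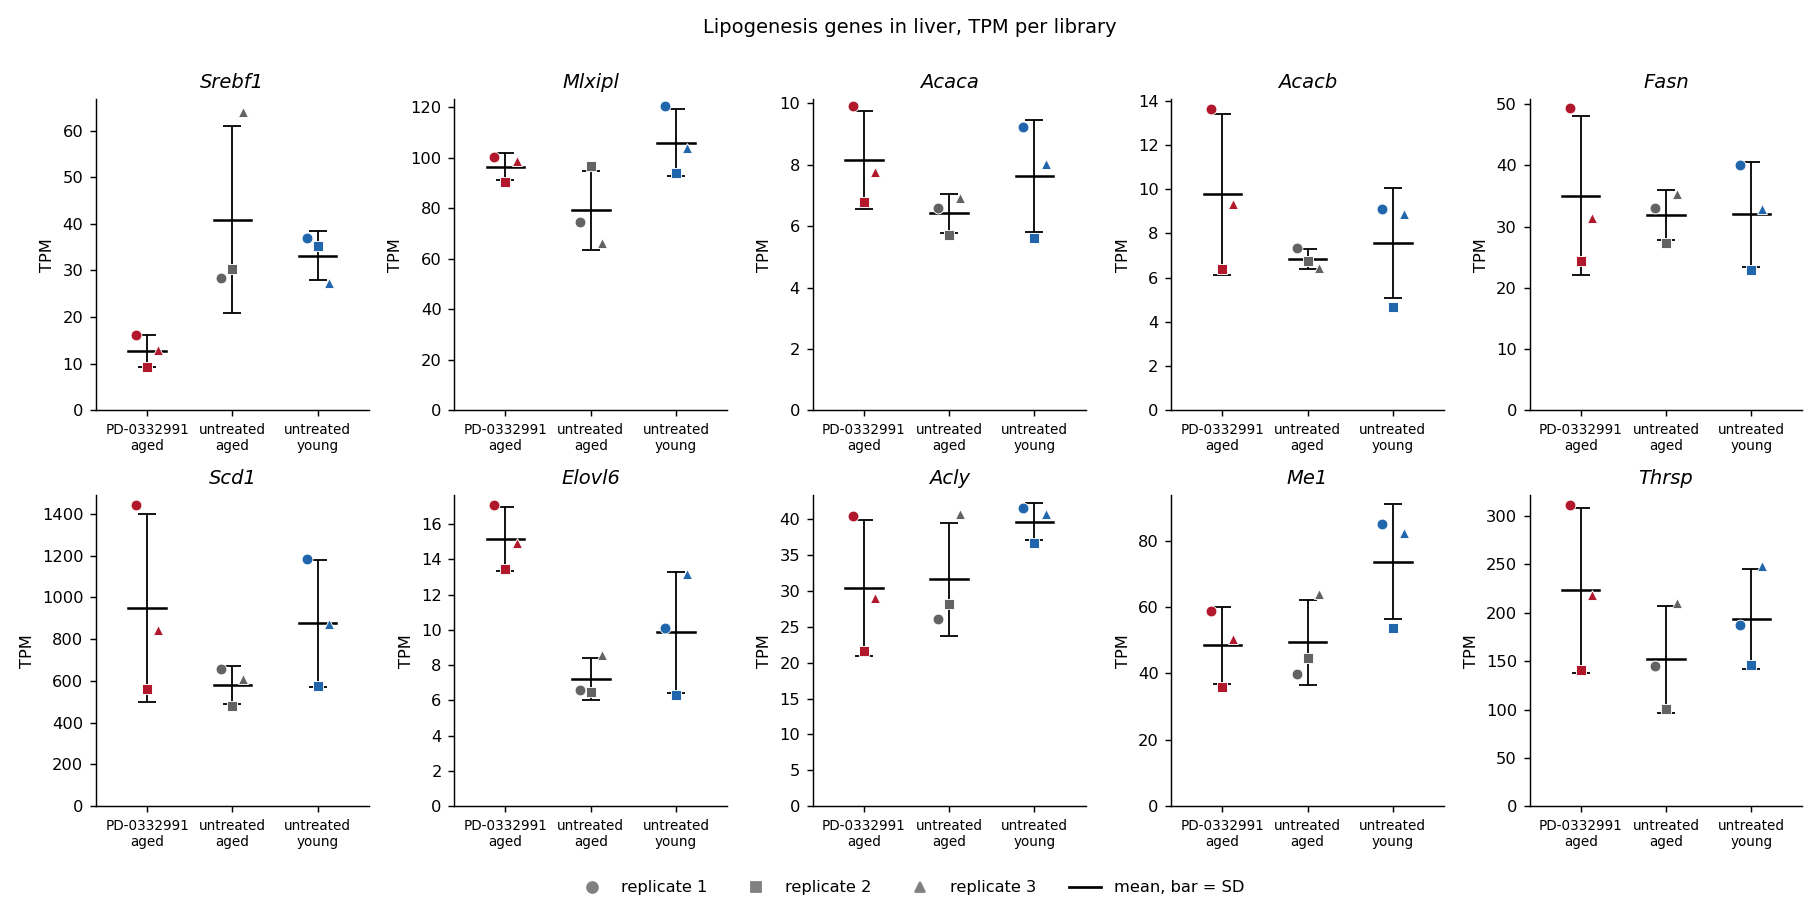
TPM of the 10 lipogenesis genes in each of the 9 libraries, by group (PD-0332991 aged, untreated aged, untreated young), with lines at the mean and bars of 1 SD. The treated libraries lie below all untreated libraries for Srebf1 and above them for Elovl6, and replicate 1 is the highest treated library in all 10 panels.

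The comparison of treated with untreated aged livers asked what the drug does in old animals. Srebf1 was low in every treated library and Elovl6 was high in every treated library, while Mlxipl, the carboxylases, Fasn, Scd1, Acly, Me1 and Thrsp overlapped between the groups. Neither outlying gene passed the threshold: limma, a linear model fitted over all genes, called 0 of the 10 members at an adjusted p under 0.05, and 2 had an unadjusted p under 0.05. The same rule called 1.45% of all 10161 genes. That p was reached by 18.2% of all genes. Groups did not overlap for 2 of 10 members, against 22.4% of all genes: 1 member was higher (5.72% of genes) and 1 lower (16.7% of genes). Log2 fold changes had a median of 0.31 over the members, with 7 of 10 above 0. Over all genes tested the median was -0.09, with 33.3% above 0.

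Among the transcription factors, Srebf1 had 16.1, 9.26 and 13.1 TPM in treated livers, against 28.3, 30.2 and 64.0 TPM in aged untreated livers and 37.0, 35.3 and 27.2 TPM in young livers. All 3 treated libraries lay below all 6 untreated ones, and aged untreated replicate 3 stood apart on the high side. The log2 fold change of treated against aged untreated livers was -1.57 ± 0.32 (SE; 95% interval -2.29 to -0.85), with a limma adjusted p of 0.0529. Without aged untreated replicate 3 the difference was smaller, -1.20, but past the threshold (limma adjusted p = 0.0106), as it was without aged untreated replicate 1 (-1.78, limma adjusted p = 0.0366). Only these 2 of the 9 fits that leave out a library passed, and the highest limma adjusted p among the 9 was 0.166. Of the 10 other alternatives 3 put Srebf1 past the threshold. Mlxipl had 100.1, 90.3 and 98.7 TPM in treated livers, against 74.5, 96.6 and 66.4 TPM in aged untreated livers and 120.2, 93.9 and 103.7 TPM in young livers. Its treated and aged untreated ranges overlapped (log2 fold change 0.30 ± 0.14, limma adjusted p = 0.285).

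At the supply end, Acly had 40.5, 21.7 and 29.1 TPM in treated livers, against 26.1, 28.2 and 40.7 TPM in aged untreated livers and 41.6, 36.7 and 40.7 TPM in young livers. Me1 had 58.7, 36.0 and 50.5 TPM in treated livers, against 39.8, 44.6 and 63.9 TPM in aged untreated livers and 84.9, 53.6 and 82.2 TPM in young livers. For both genes the treated and aged untreated libraries covered nearly the same range, with log2 fold changes of -0.07 ± 0.22 for Acly (95% interval -0.56 to 0.41) and -0.03 ± 0.24 for Me1 (-0.57 to 0.51). The signs of these 2 values depended on the scaling: with median-of-ratios scaling they were 0.02 for Acly and 0.07 for Me1. Young libraries 1 and 3 held more Me1 than any aged library.

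The carboxylases come as Acaca, the cytosolic enzyme of synthesis, and Acacb, the mitochondrial enzyme whose malonyl-CoA restrains fatty acid oxidation. Acaca had 9.92, 6.79 and 7.78 TPM in treated livers, against 6.60, 5.72 and 6.92 TPM in aged untreated livers and 9.22, 5.63 and 8.02 TPM in young livers. Acacb had 13.6, 6.39 and 9.31 TPM in treated livers, against 7.35, 6.75 and 6.44 TPM in aged untreated livers and 9.10, 4.70 and 8.87 TPM in young livers. Both genes varied more among treated than among aged untreated libraries, and treated replicate 1 was the highest of all 9 for both. Their log2 fold changes against aged untreated livers were 0.31 ± 0.18 and 0.42 ± 0.28 (limma adjusted p = 0.386 for Acaca and 0.457 for Acacb). The Acacb to Acaca ratio within a library was 1.37, 0.941 and 1.20 in treated livers, 1.11, 1.18 and 0.931 in aged untreated livers and 0.987, 0.834 and 1.11 in young livers. No pair of groups passed the threshold for the log2 ratio of TPM + 0.5 in an exact two-sided permutation test (difference 0.11 for treated against aged untreated livers, p = 0.5; 0.24 for treated against young, p = 0.3; 0.13 for aged untreated against young, p = 0.4; adjusted p = 0.5 over the 3 tests), where 3 against 3 libraries cannot give a p below 0.1.

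Thrsp, or Spot 14, is a small nuclear and cytosolic protein induced with lipogenesis. It had 311, 141 and 218 TPM in treated livers, against 145, 100.02 and 210 TPM in aged untreated livers and 187, 146 and 248 TPM in young livers (treated against aged untreated, log2 fold change 0.55 ± 0.36, limma adjusted p = 0.455). Its paralogue Mid1ip1, which promotes polymerisation of acetyl-CoA carboxylase, passed the threshold against aged untreated livers, which no member did. Mid1ip1 had 17.9, 16.2 and 16.0 TPM in treated livers, against 29.4, 32.9 and 29.5 TPM in aged untreated livers and 22.4, 27.5 and 29.3 TPM in young livers. It fell with treatment against aged untreated livers (log2 fold change -0.85 ± 0.12, limma adjusted p = 0.0143) and was lower than in young livers (-0.64 ± 0.12, limma adjusted p = 0.0104). The call against aged untreated livers was lost without treated replicate 2 or 3 (limma adjusted p = 0.0704 and 0.0557), and the call against young livers without treated replicate 2 (0.0519).

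Fasn, the synthase itself, had 49.4, 24.4 and 31.3 TPM in treated livers, against 33.02, 27.4 and 35.3 TPM in aged untreated livers and 40.1, 22.9 and 32.9 TPM in young livers. The ranges of the 3 groups overlapped, and the treated against aged untreated log2 fold change was 0.08 ± 0.26 (95% interval -0.51 to 0.67). Elovl6, which extends palmitate to stearate, had 17.1, 13.5 and 14.9 TPM in treated livers, against 6.60, 6.46 and 8.58 TPM in aged untreated livers and 10.1, 6.31 and 13.2 TPM in young livers. Every treated library lay above every untreated one, narrowly so for young replicate 3. The log2 fold change against aged untreated livers was 1.03 ± 0.22 (95% interval 0.53 to 1.52), with a limma adjusted p of 0.0513. Of the 10 alternatives that kept all 9 libraries or both groups whole, 6 put Elovl6 past the threshold, as did leaving out aged untreated replicate 3, young replicate 2 or young replicate 3 (limma adjusted p = 0.0316, 0.0310 and 0.0295). Only these 3 of the 9 fits that leave out a library passed, and the highest limma adjusted p among the 9 was 0.155. Scd1, the desaturase that makes oleate and palmitoleate, had 1442, 562 and 843 TPM in treated livers, against 656, 478 and 611 TPM in aged untreated livers and 1183, 575 and 872 TPM in young livers. Its treated libraries differed among themselves by more than the group means did (treated against aged untreated, log2 fold change 0.61 ± 0.37, limma adjusted p = 0.418).

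**Figure D2:**
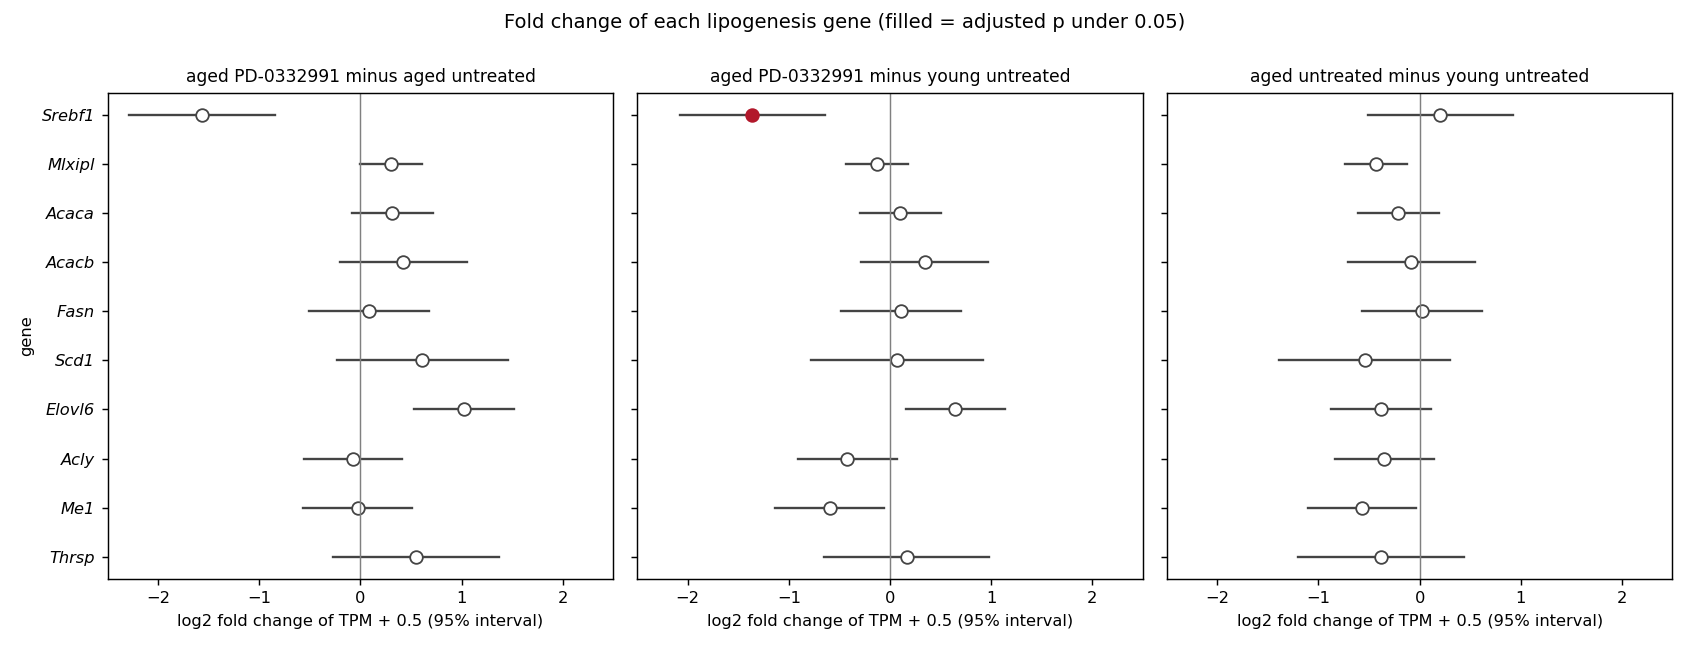
Log2 fold change of TPM + 0.5 with its 95% interval for each lipogenesis gene, in treated against aged untreated, treated against young, and aged untreated against young livers. Only Srebf1 against young livers is filled (adjusted p under 0.05), and the intervals of Srebf1 and Elovl6 exclude 0 in both comparisons with treated livers.

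Against young livers, Srebf1 fell in treated aged livers: its log2 fold change was -1.36 ± 0.32 (95% interval -2.08 to -0.64), with a limma adjusted p of 0.0377. It was the only member called (1 of 10, where 6.88% of all genes were called and 4.29% were called lower), 3 members had an unadjusted p under 0.05 (24.8% of all genes did), and the members' median was 0.09 against -0.10 over all genes. The call was lost when any 1 of the young or treated libraries was left out, with limma adjusted p = 0.124, 0.0965 and 0.0737 on dropping young replicates 1 to 3 in turn, and 0.0502, 0.132 and 0.0976 on dropping treated replicates 1 to 3. It was also lost with no filter on low values (limma adjusted p = 0.0510). Elovl6 reached 0.65 ± 0.22 (limma adjusted p = 0.107), and its groups did not overlap. Groups did not overlap for 2 of 10 members here, against 33.9% of all genes, with 1 higher (9.55% of genes) and 1 lower (24.4% of genes). Me1 differed by -0.60 ± 0.24 (limma adjusted p = 0.160) and Acly by -0.42 ± 0.22 (limma adjusted p = 0.264). Both drug comparisons use the same treated libraries, and the age comparison shares its libraries with them, so their values are not independent.

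No member passed the threshold with age. In aged untreated against young livers limma called 0 of 10 members, where it called 1.10% of all genes, and 2 members (Mlxipl and Me1) had an unadjusted p under 0.05, as did 15.0% of all genes. The ranges of the 2 groups overlapped for all 10 members, while 18.4% of all genes did not overlap. The values lay mostly on the lower side in aged untreated livers, with 8 of 10 below 0 and a median log2 fold change of -0.36. Over all genes the median was -0.01, with 47.9% above 0. Me1 had the lowest value, -0.57 ± 0.24 (limma adjusted p = 0.310), followed by Scd1 at -0.54 ± 0.37 (0.536) and Mlxipl at -0.43 ± 0.14 (0.179). Srebf1 was at 0.21 ± 0.32 (limma adjusted p = 0.819) and at -0.17 without aged untreated replicate 3.

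Members tended to be high or low in the same treated and the same young libraries, and less so among aged untreated libraries. How many of all genes share these orders was not counted. Among treated livers, replicate 1 had the highest and replicate 2 the lowest value for all 10 members. The summed TPM of the members was 2059, 911 and 1316 in treated livers, 1023, 824 and 1114 in aged untreated livers and 1722, 980 and 1437 in young livers. Scd1 made up most of each sum. Without Scd1 the sums were 616, 349 and 473 in treated, 367, 346 and 502 in aged untreated and 539, 405 and 565 in young livers. The highest treated library held 2.57 times the lowest for Scd1 and 2.13 times for Acacb, but 1.11 times for Mlxipl. Young replicate 1 was highest for 8 members and young replicate 2 lowest for 9. Aged untreated replicate 3 was highest for 7 but lowest for Mlxipl and Acacb, and aged untreated replicate 2 was lowest for 5. Over the 9 libraries, the genes whose log2 values followed the members' mean standardised value most closely, of 9616 ranked, were Elovl5, a fatty acid elongase (Pearson's r = 0.935), Ugt1a5 (0.930), Pnpla7 (0.927), Gmpr2 (0.917) and Cxadr (0.908). These r values describe the ranking only, since genes of a library share its scaling and composition. Elovl5 had 116, 62.6 and 76.6 TPM in treated livers, 63.7, 66.4 and 79.2 TPM in aged untreated livers and 96.5, 76.9 and 110 TPM in young livers, with treated replicate 1 again the highest.

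Regulators of SREBP-1 and ChREBP passed no threshold with the drug in aged livers. The 16 tested genes of 18 listed include the SREBP escort Scap, the INSIG genes, the liver X receptors and Pparg. Limma called 0 of them against aged untreated livers, and 1 had an unadjusted p under 0.05 (18.2% of all genes did). Their median log2 fold change was 0.02, against -0.09 over all genes. Insig1, itself an SREBP target that retains SREBPs in the endoplasmic reticulum, had 124, 108 and 86.4 TPM in treated livers, against 71.5, 79.5 and 170 TPM in aged untreated livers, and the groups overlapped. Insig1 and Srebf1 were both highest in aged untreated replicate 3 among the aged livers. Insig2 was at 0.06 ± 0.15. Against young livers 2 of the 16 regulators were called, where 6.88% of all genes were called. Nr0b2, the corepressor SHP, rose (1.23 ± 0.30, limma adjusted p = 0.0475) and Scap fell (-0.49 ± 0.12, limma adjusted p = 0.0316). Both calls were lost when any 1 of several libraries was left out (2 of 9 such fits kept Nr0b2 and 4 of 9 kept Scap). Nr0b2 had 48.6, 41.2 and 39.8 TPM in treated livers, against 35.4, 27.2 and 73.4 TPM in aged untreated livers and 19.4, 16.5 and 18.5 TPM in young livers. Both aged groups thus lay above the young one, with a log2 fold change of 0.06 ± 0.30 between treated and aged untreated livers and of 1.17 ± 0.30 between aged untreated and young livers (limma adjusted p = 0.122). No regulator was called between aged untreated and young livers, where 3 had an unadjusted p under 0.05 (15.0% of all genes did).

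Other lipogenic enzymes, such as the desaturases Fads1 and Fads2, the citrate carrier Slc25a1 and the acyltransferase Gpam, were 16 tested of 18 listed. Mid1ip1 was the only one called in either drug comparison (1 lower in each). Limma called 1.45% of all genes against aged untreated livers and 6.88% against young livers. Of this list, 4 had an unadjusted p under 0.05 against aged untreated livers (18.2% of all genes did). The list's median log2 fold change was -0.09, the same as over all genes, in treated against aged untreated livers. Elovl3, a long-chain elongase, had 148, 69.2 and 162 TPM in treated livers, against 233, 206 and 281 TPM in aged untreated livers, without overlap (log2 fold change -1.003 ± 0.33, limma adjusted p = 0.173), and so lay on the other side from Elovl6. No enzyme of this list was called between aged untreated and young livers, where 3 had an unadjusted p under 0.05 (15.0% of all genes did).

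Among 17 genes of glycolysis and ChREBP targets, limma called 0 in treated against aged untreated livers, where it called 1.45% of all genes. An unadjusted p under 0.05 was reached by 5 of the 17 and by 18.2% of all genes. Against young livers 3 of the 17 fell, where 4.29% of all genes were called lower. They were the liver pyruvate kinase Pklr (-1.21 ± 0.21, limma adjusted p = 0.0099), the glucose transporter Slc2a2 (-0.75 ± 0.18, 0.0317) and Gpd1 (-0.60 ± 0.15, 0.0324), which makes glycerol 3-phosphate. Pklr had 32.5, 23.6 and 28.1 TPM in treated livers, 38.9, 37.7 and 33.2 TPM in aged untreated livers and 71.1, 45.4 and 85.6 TPM in young livers, so both aged groups lay below the young one. The difference of aged untreated from young livers missed the threshold (-0.83 ± 0.21, limma adjusted p = 0.0915). No gene of this list was called in that comparison, and 7 had an unadjusted p under 0.05 (15.0% of all genes did). Leaving out treated replicate 2 ended the calls of Pklr (limma adjusted p = 0.0513), Slc2a2 (0.111) and Gpd1 (0.131) against young livers, and the last 2 were also lost without young replicate 1 (0.117 and 0.113), young replicate 3 (0.116 and 0.121) or treated replicate 3 (0.105 and 0.0821). The glucose- and insulin-responsive gene listed as Gm6484, now Angptl8, had 45.7, 45.7 and 37.6 TPM in treated livers, against 218, 280 and 59.0 TPM in aged untreated livers and 40.7, 57.6 and 83.2 TPM in young livers. Aged untreated replicates 1 and 2 were far above all other libraries (treated against aged untreated, log2 fold change -1.83 ± 0.58, limma adjusted p = 0.175). Enzymes that supply NADPH, 9 tested of 11 listed, had 0 calls in each comparison, with 3, 3 and 2 at an unadjusted p under 0.05 in treated against aged untreated, treated against young and aged untreated against young livers. Over all genes the shares at such a p were 18.2%, 24.8% and 15.0%.

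**Figure D3:**
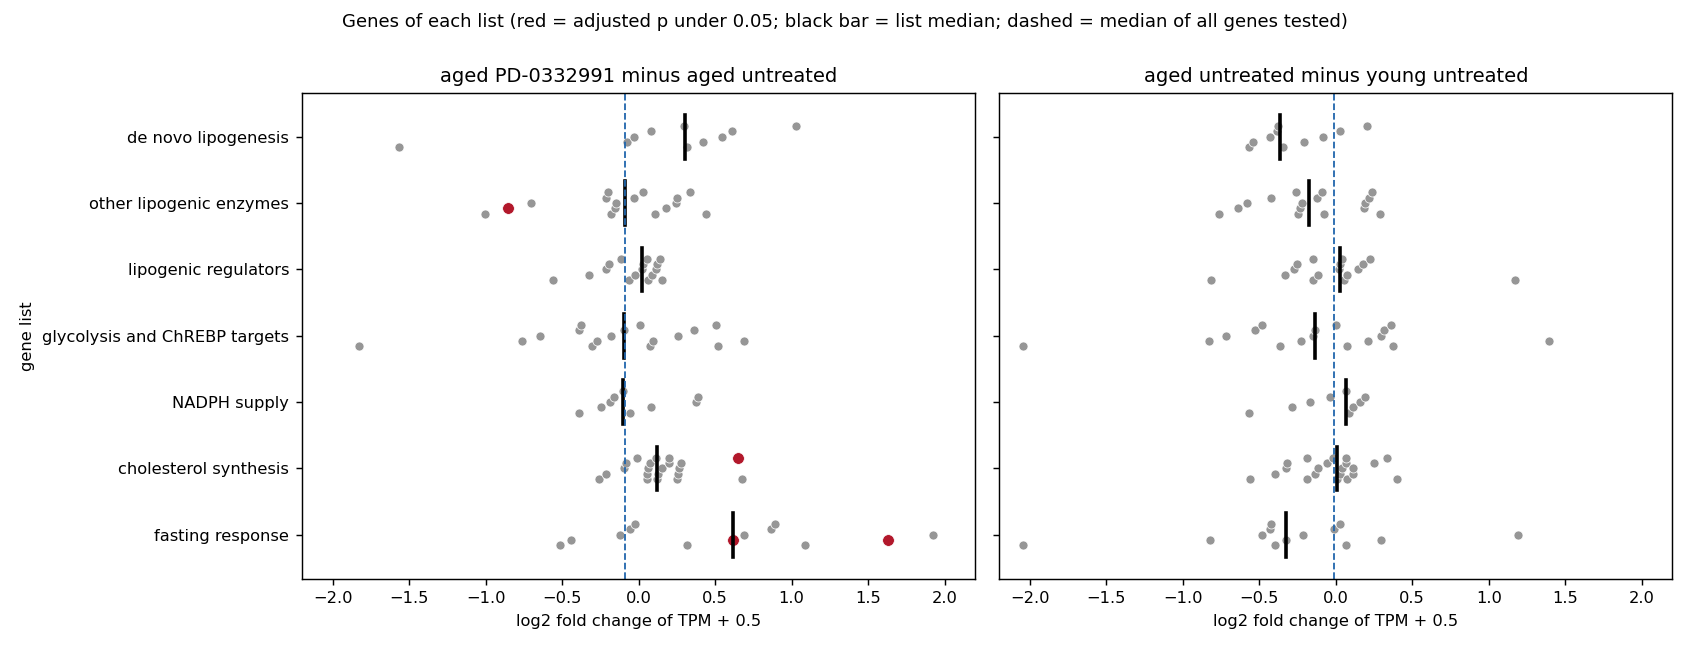
Log2 fold change of TPM + 0.5 for every tested gene of 7 lists, in treated against aged untreated and in aged untreated against young livers. Red points passed an adjusted p under 0.05, black bars are list medians (0.31 and -0.36 for de novo lipogenesis) and the dashed line is the median of all genes tested.

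Cholesterol synthesis, driven by the sister factor SREBP-2, lay slightly on the higher side in treated livers. Against aged untreated livers 16 of 21 genes were above 0, with a median of 0.12. Over all genes tested 33.3% were above 0, with a median of -0.09. Of the 21, 4 had an unadjusted p under 0.05 in that comparison (18.2% of all genes did). Against young livers 6 did (24.8% of all genes). Sqle, which makes squalene epoxide, rose, with 43.7, 38.7 and 29.2 TPM in treated livers, against 22.6, 23.0 and 24.2 TPM in aged untreated livers (log2 fold change 0.65 ± 0.13, limma adjusted p = 0.0375). That call was kept in 2 of the 9 fits that leave out a library, and was lost with no filter (limma adjusted p = 0.0832), without limma's trend and robust options (0.0641) and in the fit of 2 groups (0.115). Against young livers Sqle rose too (0.72 ± 0.13, limma adjusted p = 0.0107), and this call was lost without treated replicate 2 (limma adjusted p = 0.0550). No gene of this list was called between aged untreated and young livers, where 2 had an unadjusted p under 0.05 (15.0% of all genes did).

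Of 13 fasting-response genes tested, 2 rose in treated against aged untreated livers, where 1.45% of all genes were called. An unadjusted p under 0.05 was reached by 5 of the 13 and by 18.2% of all genes. The log2 fold change was positive for 8 of the 13 and negative for 5 (median 0.62), and positive for 33.3% of all genes (median -0.09). Angptl4, an inhibitor of lipoprotein lipase, had 130, 106 and 127 TPM in treated livers, against 42.1, 31.6 and 43.1 TPM in aged untreated livers and 73.6, 51.7 and 84.8 TPM in young livers (treated against aged untreated, 1.63 ± 0.18, limma adjusted p = 0.0096, past the threshold whichever library was left out). Cpt1a, which carries fatty acids into mitochondria and is restrained by malonyl-CoA, had 53.4, 48.8 and 49.3 TPM in treated livers, against 31.6, 35.0 and 31.7 TPM in aged untreated livers (0.62 ± 0.09, limma adjusted p = 0.0158, lost without treated replicate 2 or 3 at 0.0728 and 0.0659). Pck1 of gluconeogenesis had 866, 813 and 1067 TPM in treated livers, against 418, 235 and 797 TPM in aged untreated livers, and did not pass (limma adjusted p = 0.192). Igfbp1, an insulin-repressed gene, had 68.1, 30.6 and 41.1 TPM in treated livers, against 6.71, 8.23 and 25.3 TPM in aged untreated livers (limma adjusted p = 0.200). Of the 5 genes at an unadjusted p under 0.05, Cyp4a14 lay on the lower side. This fatty acid hydroxylase gene had 144, 221 and 163 TPM in treated livers, against 195, 315 and 246 TPM in aged untreated livers (-0.51 ± 0.19, limma adjusted p = 0.195). For Pck1 and Igfbp1, aged untreated replicate 3, the library with the most Srebf1, was the nearest to the treated ones. For Angptl4 it was also replicate 3, at 43.1 TPM, close to replicate 1 at 42.1 TPM. For Cpt1a the nearest was aged untreated replicate 2, at 35.0 TPM, and for Cyp4a14 aged untreated replicate 1, at 195 TPM, lay within the treated range. Against young livers Angptl4 rose (0.81 ± 0.18, limma adjusted p = 0.0266), and this call was kept in 4 of the 9 fits that leave out a library. The list as a whole was not higher there: 6 of the 13 were above 0 and 7 below, with a median of -0.11 (-0.10 over all genes). Of the 13, 9 had an unadjusted p under 0.05 in that comparison (24.8% of all genes did). Between aged untreated and young livers 0 of 13 were called, with 6 at an unadjusted p under 0.05 (15.0% of all genes). The labels do not state feeding before collection, and the part of feeding state in the Srebf1 and Elovl6 differences was not tested.

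Clock genes, which cycle daily as lipogenic genes do, also differed between libraries. Dbp, a clock output factor, had 6.99, 27.7 and 21.9 TPM in treated livers, against 0.645, 0.576 and 14.3 TPM in aged untreated livers and 14.02, 14.8 and 6.51 TPM in young livers. Arntl, which peaks opposite to Dbp, had 2.66, 0.989 and 1.82 TPM in treated livers, against 4.60, 5.23 and 3.36 TPM in aged untreated livers and 2.57, 2.97 and 2.60 TPM in young livers. Aged untreated replicates 1 and 2 thus stood apart from the other libraries at low Dbp. Of 17 clock genes tested, 10 had an unadjusted p under 0.05 in treated against aged untreated livers, as did 18.2% of all genes. Log2 fold changes were positive for 12 and negative for 5, with a median of 0.55, against -0.09 over all genes. In treated against young livers 5 had such a p (24.8% of all genes), and 5 in aged untreated against young livers (15.0%). Limma called Per1 higher (0.99 ± 0.21, adjusted p = 0.0424) and Cry1 lower (-1.23 ± 0.22, adjusted p = 0.0215) in treated than in aged untreated livers, where it called 1.45% of all genes. Cry1 (1.17 ± 0.22, limma adjusted p = 0.0328) and Nfil3 (0.92 ± 0.15, limma adjusted p = 0.0144) were higher in aged untreated than in young livers, and Per1 (0.999 ± 0.21, limma adjusted p = 0.0182) and Nfil3 (1.47 ± 0.15, limma adjusted p = 0.00109) were higher in treated than in young livers. Of these calls only that of Nfil3 against young livers in treated mice was kept in all 9 fits that leave out a library. The labels give no time of collection, and the part of the clock in the members' differences was not tested.

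**Figure D4:**
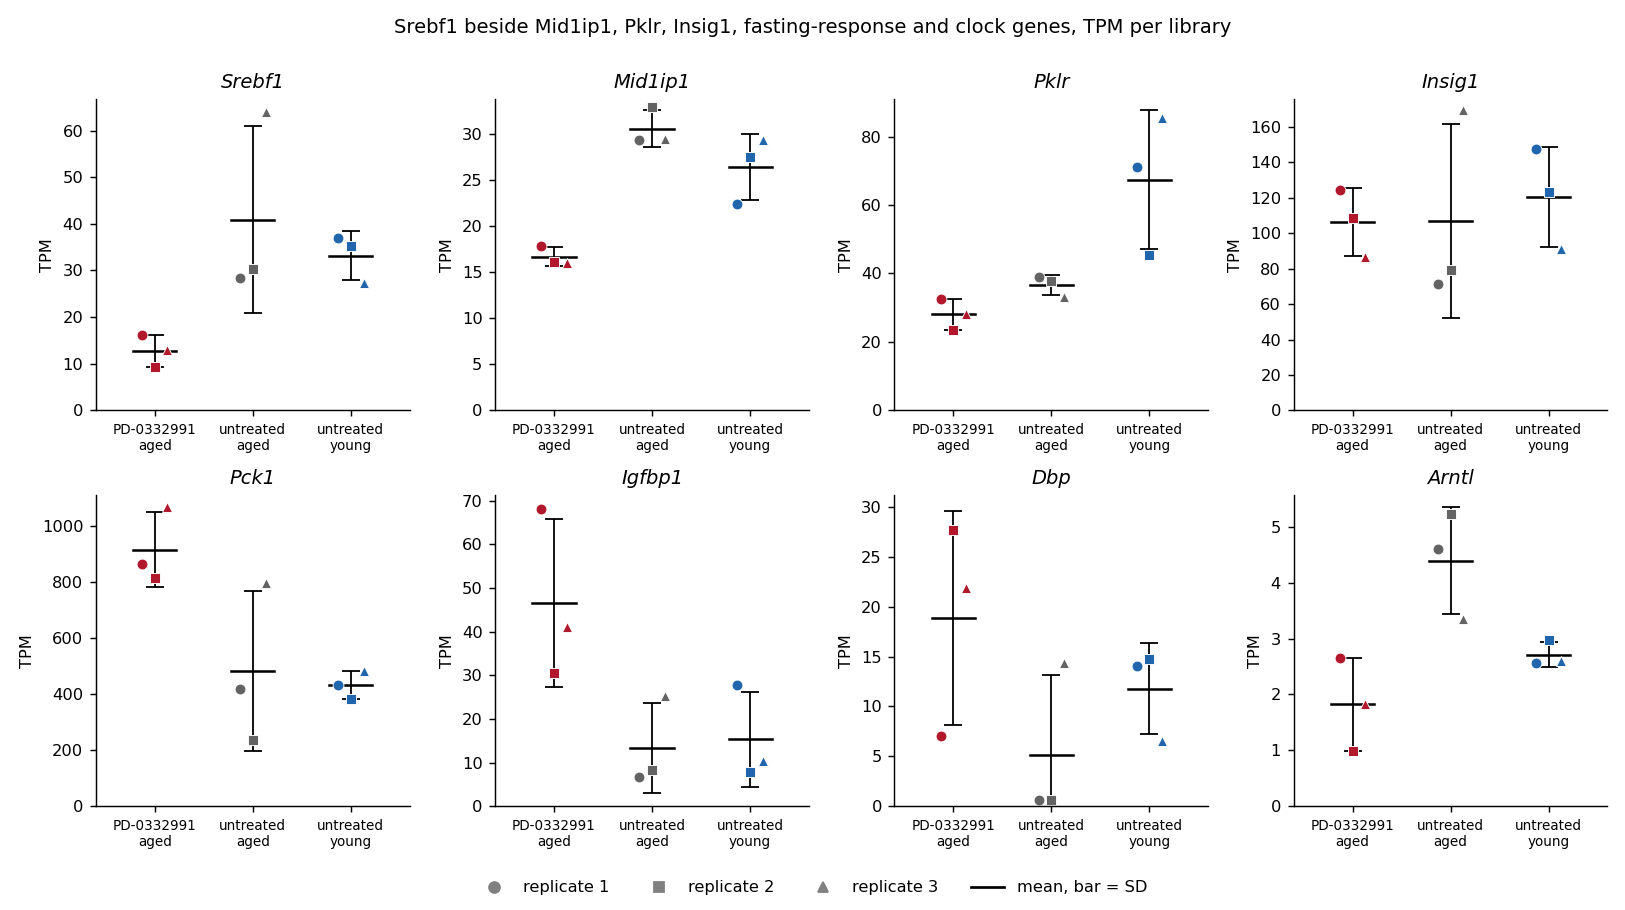
TPM per library of Srebf1 beside Mid1ip1, Pklr, Insig1, the fasting genes Pck1 and Igfbp1 and the clock genes Dbp and Arntl, by group, with the mean and bars of 1 SD. Aged untreated replicate 3 (grey triangle) has the most Srebf1, 64.0 TPM, and the most Insig1, 170 TPM, and lies apart from the other aged untreated libraries for Pck1, Igfbp1 and Dbp.

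Markers of liver cells were read beside the members, and in whole-liver RNA fewer cells of a type and less RNA per cell cannot be told apart. The 12 hepatocyte markers, which include Ttr and Apoa1, summed to 26628 to 31331 TPM in treated livers, 26742 to 32166 TPM in aged untreated livers and 30856 to 31166 TPM in young livers, although Alb was listed at 0 in all 9. Of 11 hepatocyte markers tested, 0 were called in treated against aged untreated livers (2 at an unadjusted p under 0.05, and 18.2% of all genes). In aged untreated against young livers 0 were called (1 at such a p, and 15.0% of all genes). In treated livers Ttr fell against young livers (-0.41 ± 0.10, limma adjusted p = 0.0357, kept in 3 of 9 fits that leave out a library). Several lipogenic genes are also high in fat tissue. Of the 10 adipocyte markers, Adipoq, Lep, Retn, Plin1 and Ucp1 were listed at 0 in all treated and aged untreated libraries, where a listed 0 need not mean absence, as Alb shows. Cidea, a lipid droplet gene, had 3.76, 4.42 and 3.85 TPM in treated livers, against 0.497, 0.0986 and 7.77 TPM in aged untreated livers and 0.071, 0 and 0 TPM in young livers, without overlap between treated and young livers (limma adjusted p = 0.0727). In young replicate 1, the highest young library for 8 members, Adipoq was at 0.853, Retn at 1.70 and Cfd at 6.16 TPM. In young replicates 2 and 3, Adipoq was at 0.0824 and 0.0516, Retn at 0 in both, and Cfd at 0.951 and 0.501 TPM. Fabp4, Lipe and Adrb3 were instead highest in young replicate 2, at 17.8, 6.62 and 6.27 TPM. In young replicate 1 they were at 15.7, 5.89 and 5.50 TPM. Together the 10 adipocyte markers summed to 19.5 to 26.3 TPM in treated livers, 19.7 to 32.9 TPM in aged untreated livers and 21.6 to 35.9 TPM in young livers. Of the 4 tested, 0 were called in any comparison (0, 3 and 0 at an unadjusted p under 0.05 in treated against aged untreated, treated against young and aged untreated against young livers). Over all genes the shares at such a p were 18.2%, 24.8% and 15.0%. Macrophage markers summed to 84.4 to 93.0 TPM in treated livers, 94.8 to 126 TPM in aged untreated livers and 98.2 to 143 TPM in young livers. All 9 tested were below 0 in treated against aged untreated livers, where 33.3% of all genes were above 0. None was called there, and 4 had an unadjusted p under 0.05 (18.2% of all genes did). Against young livers 5 of 9 fell, where 4.29% of all genes were called lower. Those 5 were Timd4 (-0.93), Csf1r (-0.83), Vsig4 (-0.73), Clec4f (-0.72) and Cd68 (-0.56), each kept in 3 to 5 of the 9 fits that leave out a library. Of 10 endothelial and stellate markers, limma called Lyve1 alone, lower in aged untreated than in young livers (-1.22 ± 0.25, adjusted p = 0.0449, kept in 2 of 9 such fits). The part of cell makeup in the members' values was not tested.

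Across the whole series, the listed TPM summed to between 53.1% and 57.7% of the TPM scale per library, and 9543 to 9989 genes reached 1 TPM. Libraries of a group correlated over genes at r from 0.970 to 0.990 and libraries of different groups at 0.964 to 0.982.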

How the data were processed

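Liver RNA of 9 mouse libraries in 3 groups was analysed, with groups and replicate numbers from the labels. Per the labels' protocols, paired-end libraries were made with an Illumina TruSeq RNA kit, and per the submitters' processing notes kallisto and the build mm10 were used. Not given in the sources used here are the kallisto version, the strand setting, the annotation and the step to genes. TPM values were deposited by the authors in 1 table per library, with 23444 rows; 4 rows whose symbols had become duplicate dates were left out. TPM keeps no sequencing depth, and a value of 0 is read as listed at 0. Gene-level values do not separate isoforms.

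The test took every gene reaching 1 TPM in 3 or more libraries, on log2(TPM + 0.5), a scale that understates changes of low genes, with limma 3.58.1 in R 4.3.3 (trend and robust variance, all 9 libraries, group as the only term, two-sided, Benjamini-Hochberg over 10161 genes, called at an adjusted p under 0.05). Errors of fold changes are SE. The fit was tested on simulated data. Members and lists were chosen with earlier results of these data known, so no list is given a test. Alternatives were the pseudocount, the filter, scaling, limma's options, array weights, a replicate term, fits of 2 groups and leaving out each library. Named were all members and, from each list and comparison, up to 4 called genes or else up to 2 of the highest expressed; Elovl3, Pck1, Igfbp1, Cyp4a14, Cidea, Arntl, Dbp and Gm6484 were added, and other uncalled values chosen, after their values were seen. All 181 listed symbols were found, 5 of them under older names (Angptl8, Adgre1, Ciart, Msmo1 and Tkfc). Results of 2 genes that this rule names are not reported here. Promoter sequences are from RefSeq.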

Additional observations from a re-analysis of the deposited data

How the results depend on the processing

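Of 570 member results over all alternatives, 520 kept their direction and side of the threshold, 14 passed it only in the alternative, 8 lost it and 28 changed sign. For treated against aged untreated livers, 1 member was called with a filter of 5 TPM, median-of-ratios scaling, limma without trend and robust options, a replicate block or only the 2 groups, and 2 with quantile normalisation or array weights (Srebf1 and Elovl6). Against young livers 0 members were called with no filter or with a replicate block, which ended the call of Srebf1 (limma adjusted p = 0.0510 and 0.0594). The replicate block also ended the calls of Sqle (limma adjusted p = 0.0725), Pik3r1 (0.0816), Cry1 (0.0663) and Per1 (0.0793) in treated against aged untreated livers. Of the alternatives that leave out no library, 6 of 10 kept the call of Sqle, 4 of 10 that of Pik3r1, 6 of 9 that of Cry1 and 5 of 9 that of Per1. Leaving out 1 library gave 0 to 2 members called against aged untreated livers and 0 to 1 against young livers, and a member median of -0.16 to 0.28 against young livers.

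Genes called numbered 62 with no filter, 66 without trend and robust options, 490 with array weights and 49 with 2 groups for aged untreated against young livers. For treated against aged untreated livers they were 29, 271 and 35 with no filter, array weights and 2 groups, and 60 with the replicate block. For treated against young livers they were 1354 with array weights and 1293 with 2 groups. Leaving out 1 library gave 15 to 696, 7 to 392 and 151 to 1263 in these comparisons. Replicate numbers did not pair the libraries: of 9 same-number pairs 2 had deviations correlated above 0.1 (r -0.22 to 0.17). With quantile and median-of-ratios scaling, calls were 88 and 109 higher against 56 and 56 lower for treated against aged untreated livers (62 and 85 in the fit reported), and 308 and 359 higher against 310 and 250 lower for treated against young livers (263 and 436).

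Signs turned with array weights for Srebf1 (-0.0452) and Fasn (-0.0602) in aged untreated against young livers, and for Me1 (0.17) and Acly (0.11) in treated against aged untreated livers. They turned for Me1 (0.0033) with quantile normalisation and 0.0664 with median-of-ratios scaling, for Acly (0.0205) with median-of-ratios scaling, and for Scd1 (-0.0471) with quantile normalisation in treated against young livers. Leaving out 1 library gave ranges through 0 for Srebf1 (-0.17 to 0.42), Acacb (-0.37 to 0.0729) and Fasn (-0.19 to 0.20) in aged untreated against young livers. It did so for Fasn (-0.19 to 0.31), Acly (-0.30 to 0.14), Me1 (-0.18 to 0.17), Insig1 (-0.14 to 0.48) and the Acacb to Acaca ratio (-0.0077 to 0.25) in treated against aged untreated livers, and for Acaca (-0.0868 to 0.25), Fasn (-0.17 to 0.33), Scd1 (-0.29 to 0.39) and Thrsp (-0.11 to 0.46) in treated against young livers. The cause of these changes was not tested. TPM gives no counting error, so depth sets an unknown limit.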

Other observations

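Genes of insulin signalling, which raises Srebf1 after feeding, had 1 of 17 called in treated against aged untreated livers (1.45% of all genes were called). An unadjusted p under 0.05 was reached by 4 of the 17 and by 18.2% of all genes. The list's median log2 fold change was 0.05, against -0.09 over all genes. Pik3r1, the regulatory subunit of PI3-kinase, had 4.39, 4.12 and 4.21 TPM in treated livers, against 8.30, 7.80 and 5.55 TPM in aged untreated livers and 7.18, 7.64 and 8.15 TPM in young livers. It fell against aged untreated livers (log2 fold change -0.68 ± 0.15, limma adjusted p = 0.0442) and against young livers (-0.78 ± 0.15, limma adjusted p = 0.0119), and 1 of the 9 fits that leave out a library kept the first call and 7 kept the second. Irs2, the insulin receptor substrate that rises on fasting in mouse liver, had 2.09, 3.16 and 2.94 TPM in treated livers, against 1.07, 1.31 and 1.54 TPM in aged untreated livers and 1.22, 0.466 and 0.639 TPM in young livers. It rose against young livers (1.37 ± 0.23, limma adjusted p = 0.00809, kept in all 9 such fits), and its difference from aged untreated livers missed the threshold (0.83 ± 0.23, limma adjusted p = 0.0969). Between aged untreated and young livers 0 of 17 were called, with 2 at an unadjusted p under 0.05 (15.0% of all genes).

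The subunits of AMPK, the kinase that phosphorylates and inhibits acetyl-CoA carboxylase, were 6 tested of 7 listed with the upstream kinase Stk11. Prkag2, a regulatory subunit, had 3.10, 3.77 and 2.36 TPM in treated livers, against 5.48, 4.84 and 7.93 TPM in aged untreated livers and 6.99, 5.49 and 5.08 TPM in young livers, so all treated libraries lay below all untreated ones. It fell against young livers (-0.84 ± 0.20, limma adjusted p = 0.0318, kept in 3 of 9 fits that leave out a library), and missed the threshold against aged untreated livers (-0.87 ± 0.20, limma adjusted p = 0.0571). In treated against aged untreated livers 0 of 6 were called, with 2 at an unadjusted p under 0.05 (18.2% of all genes). In aged untreated against young livers 0 were called and 0 reached an unadjusted p under 0.05 (15.0% of all genes did).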
